A study of Mus musculus with 12 samples.

Results

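The 10 genes described here encode the scaffolds, anchors and centriole factors that set where microtubules start in a cell: Akap6, Syne1, Syne2, Pcm1, Pcnt, Akap9, Cdk5rap2, Cep135, Plk4 and Cenpj. They were chosen by name as organizers of the centrosome and the nuclear envelope, with earlier results of these data known. All 10 were found among the 24421 genes counted in every library and among the 12252 that passed the low-count filter. In most dividing animal cells microtubules grow from the centrosome, a pair of centrioles within a pericentriolar matrix. Around birth, rodent cardiomyocytes move pericentriolar proteins to the nuclear envelope, where nesprins and A-kinase anchoring proteins hold them, and the cells then leave the cell cycle. The genes therefore fall into envelope anchors (Akap6, Syne1, Syne2), proteins that move between both sites (Pcm1, Pcnt, Akap9, Cdk5rap2) and centriole duplication factors (Cep135, Plk4, Cenpj).

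RNA-seq was performed on cardiomyocytes of mouse hearts on the CD1 background at postnatal day 1, sorted by FACS for a YFP reporter and for Mitotracker, a dye for mitochondrial content. Glut1 transgenic hearts carried aMHC-hGLUT1tg, aMHC-Cre tg and the R26+/YFP reporter, and the hearts labelled wild type (WT) carried the same Cre and reporter according to the methods of the study. The Mitotracker-high cells are called Tnnt2low and the Mitotracker-low cells Tnnt2high, as the study named them, which gave 4 Glut1 transgenic and 2 WT libraries of each population. No injury or drug was applied to these groups. The aMHC promoter, active in cardiomyocytes, drives both the glucose transporter and Cre, so the YFP gate marks cells that have used this promoter. The labels tie each Glut1 transgenic pair of libraries to 1 heart, whereas both WT pairs carry the number 9 and may come from 1 heart, so p-values that involve WT may measure technical spread.

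Each library held 4065306 to 9815069 reads in genes. The 10 cardiomyocyte markers summed to between 116388 and 144751 CPM (read counts scaled to library size by the TMM method) in all 12 libraries. Their sums were 116388 to 133904 CPM in Glut1 transgenic Tnnt2low and 133957 to 144751 in Glut1 transgenic Tnnt2high. The WT sums were 122304 to 134617 against 134383 to 141529. Of the 10 markers, 5 were called lower and 1 higher in Glut1 transgenic Tnnt2low, where 8.33% of all tested genes were lower and 8.42% higher. With the offset for transcript length and GC content described below, 2 of the 10 were called, where 2.38% of all tested genes were. Their median log2 fold change was -0.23 with that offset, against -0.49 without it. Tnnt2 itself was at 13420 ± 632 CPM in Glut1 transgenic Tnnt2low against 17956 ± 2275 in Tnnt2high (SD, n = 4). Slc2a1, the mouse gene for GLUT1, was at 33.5 to 92.5 CPM in Glut1 transgenic libraries and at 13.3 to 28.9 in WT ones, with the caveat that the transgene is human. Reads that the authors' counting placed outside exons, per read in a gene, were 0.886 to 1.07 in Glut1 transgenic Tnnt2low and 2.26 to 2.63 in Glut1 transgenic Tnnt2high. In WT they were 1.13 and 1.495 in Tnnt2low against 1.83 and 1.51 in Tnnt2high. The 9 fibroblast and matrix markers summed to 58.8 to 150 CPM in Glut1 transgenic Tnnt2low and to 239 to 1050 in Glut1 transgenic Tnnt2high, and to 131 to 265 against 123 to 560 in WT, and 6 of the 9 were called lower in Glut1 transgenic Tnnt2low. The 8 endothelial markers, all detected, summed to 9.47 to 81.9 against 34.7 to 268 CPM in Glut1 transgenic hearts, the 8 smooth muscle and pericyte markers to 918 to 1132 against 1056 to 1625, and the leukocyte, erythroid and neural lists stayed under 26 CPM in every library. The part of these quantities in the values below was not tested. In bulk RNA, fewer cells expressing a gene and less of its RNA per cell cannot be told apart.

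The regions just upstream of the genes differ in how many CG dinucleotides they hold. The 250 bases before the RefSeq start sites (GRCm38.p6) were found for 9 of the 10 genes, with 3 starts for Syne1, and 3 of them are shown for an envelope anchor, a matrix scaffold and a centriole kinase, with CG dinucleotides in capitals. The windows lie at chr12:52699133-52699382 on the plus strand for Akap6, chr10:76442913-76443162 on the minus strand for Pcnt and chr3:40799701-40799950 on the plus strand for Plk4.
Akap6: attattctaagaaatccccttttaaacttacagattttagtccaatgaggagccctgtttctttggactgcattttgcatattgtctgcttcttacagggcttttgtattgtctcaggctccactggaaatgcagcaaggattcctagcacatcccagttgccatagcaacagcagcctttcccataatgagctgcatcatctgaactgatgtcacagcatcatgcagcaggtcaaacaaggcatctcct
Pcnt: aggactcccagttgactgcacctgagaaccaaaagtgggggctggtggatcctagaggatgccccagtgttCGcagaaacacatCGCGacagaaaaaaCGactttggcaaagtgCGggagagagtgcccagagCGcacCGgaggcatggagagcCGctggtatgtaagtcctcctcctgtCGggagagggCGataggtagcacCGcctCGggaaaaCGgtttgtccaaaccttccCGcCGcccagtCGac
Plk4: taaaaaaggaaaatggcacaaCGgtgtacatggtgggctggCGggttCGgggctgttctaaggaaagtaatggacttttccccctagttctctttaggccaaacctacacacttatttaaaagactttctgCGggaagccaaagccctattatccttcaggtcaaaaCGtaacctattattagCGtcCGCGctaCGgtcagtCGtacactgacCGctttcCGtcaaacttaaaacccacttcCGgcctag
The Akap6 window holds 0 CG dinucleotides, as do 7.87% of the 32851 mouse windows of this length. The Pcnt window holds 16 and the Plk4 window 13, against a median of 6 over all windows. The 3 Syne1 windows hold 7, 2 and 4, while those of Cep135, Cenpj, Akap9, Cdk5rap2 and Syne2 hold 16 to 26. The heptamer TTCCCGC, or the same letters with GG, CG or GC after the opening TT, is the core of E2F sites. Searched on both strands, it was in 2 of the 11 windows, those of Pcnt and Plk4, against 7.89% of all windows. A match of letters is a description of the sequence and not a binding site.

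Read levels per kilobase of exon placed the 10 genes in 4 tiers, described first for 1 group. In Glut1 transgenic Tnnt2low cells, Pcm1 (32.6 ± 2.30 CPM per kb) and Akap6 (29.1 ± 4.54) were highest, and their libraries overlapped (SD, n = 4). Pcnt (10.5 ± 1.25 CPM per kb) and Akap9 (9.60 ± 0.582) followed, overlapping each other and lying below every Akap6 value. Syne1 (5.63 ± 0.481 CPM per kb) and Syne2 (4.30 ± 0.593) came next and also overlapped. The other 4 genes, Cenpj (3.10 ± 0.706 CPM per kb), Cdk5rap2 (2.55 ± 0.789), Plk4 (2.40 ± 0.137) and Cep135 (2.14 ± 0.389), lay below every Syne2 value, and no neighbours in this order were apart. Pcm1 and Akap6 held the first and second places in all 4 groups, Pcnt and Akap9 came next in either order, and Syne1 and Syne2 after them. Exon length here is the union of all annotated isoforms, and gene counts do not separate the short nesprin isoforms of muscle from the giant ones.

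To ask whether the organizers differ between the populations when glucose uptake is raised, Tnnt2low was compared with Tnnt2high cells of Glut1 transgenic hearts. All 6 of the more abundant organizers, Akap6, Pcnt, Pcm1, Akap9, Syne1 and Syne2, rose in Tnnt2low cells by 1.46- to 1.64-fold, and none of the 10 fell. This is 6 of 10, where 8.42% of all tested genes were called higher and 8.33% lower (edgeR's quasi-likelihood test, Benjamini-Hochberg adjusted p under 0.05). The less abundant Cdk5rap2, Plk4, Cenpj and Cep135 were not called. The median log2 fold change of the 10 genes was 0.56, against -0.01 over all tested genes, and all 10 values were above 0.

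**Figure D1:**
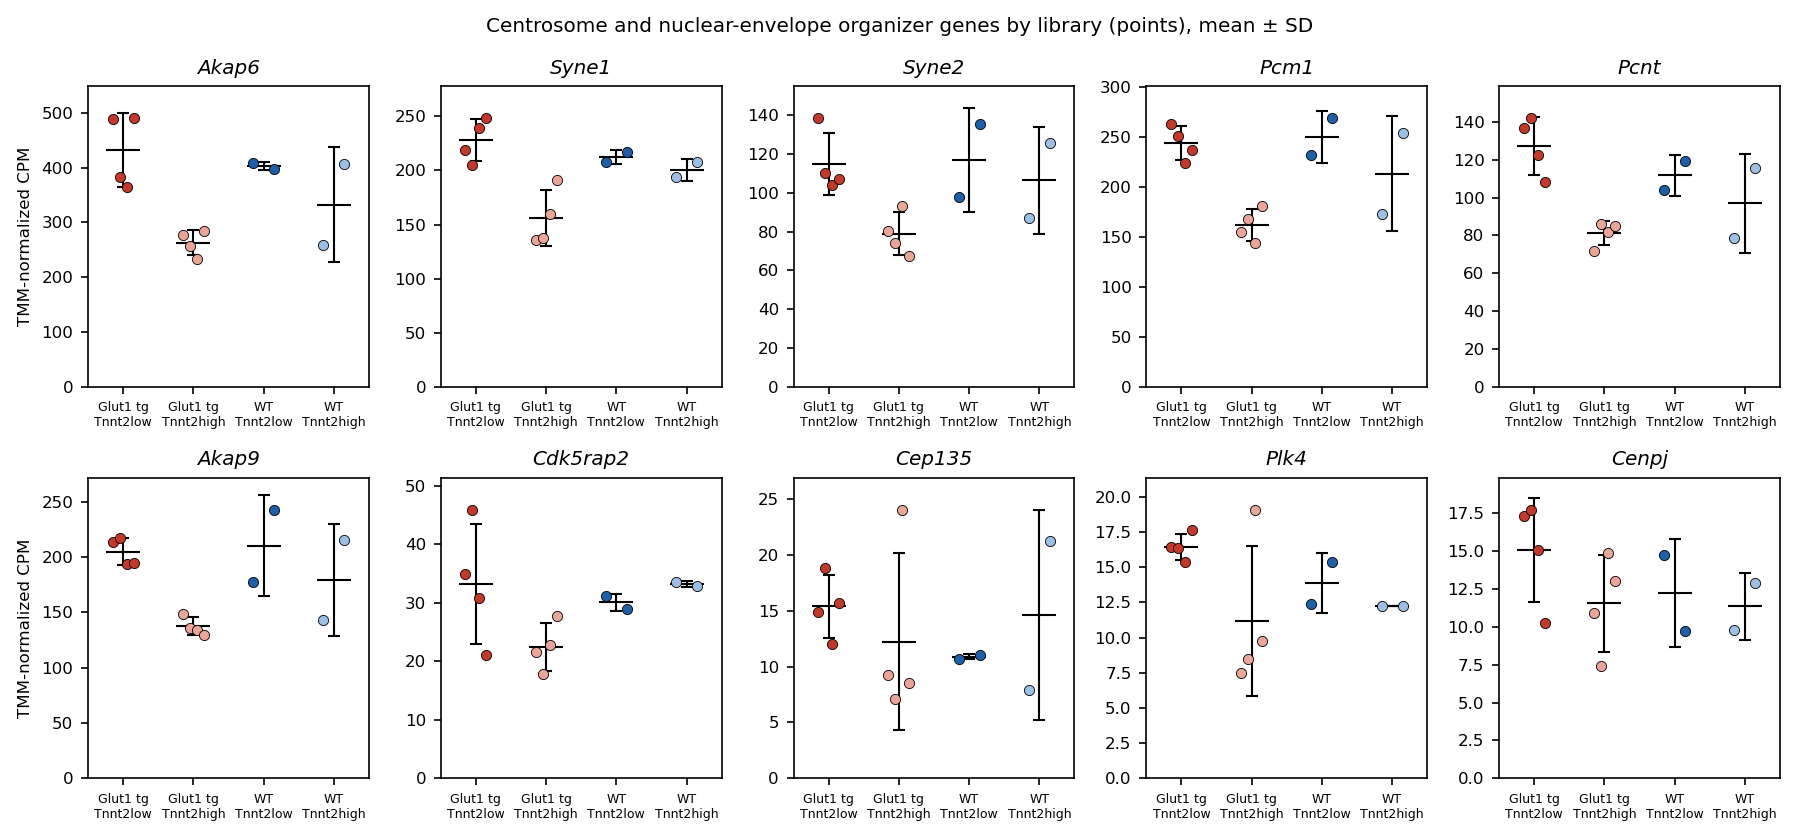
TMM-normalized CPM of the 10 genes (vertical axes, each starting at 0) in each library (points) of the 4 groups (horizontal axes), with the mean and SD as bars. The Glut1 transgenic Tnnt2low points lie above all Glut1 transgenic Tnnt2high points for Akap6, Syne1, Syne2, Pcm1, Pcnt and Akap9, and overlap them for the other 4 genes.

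Akap6 (chr12:52699383-53155599, GRCm38), the muscle anchoring protein that holds protein kinase A at the nuclear envelope and ties organizer proteins to it, was at 488.8, 383.0, 364.0 and 489.9 CPM in the 4 Glut1 transgenic Tnnt2low libraries. In the Tnnt2high libraries of the same hearts it was at 276.7, 257.7, 233.3 and 283.3 CPM. Every Tnnt2low library was thus above every Tnnt2high library. The log2 fold change was 0.72 ± 0.15 (SE), with an adjusted p of 0.00615 in edgeR's test.

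The 2 nesprins, giant proteins of the outer nuclear membrane that link the nucleus to the cytoskeleton, moved by a similar amount. Syne1 (nesprin-1, chr10:5020917-5551482) was at 218.6, 205.4, 239.2 and 248.3 CPM in Tnnt2low against 135.4, 137.7, 159.9 and 190.8 in Tnnt2high. Its groups did not overlap, and the log2 fold change was 0.55 ± 0.13 (edgeR, adjusted p = 0.0105). Syne2 (nesprin-2, chr12:75818134-76110926) was at 138.5, 110.1, 104.3 and 107.2 CPM against 80.3, 74.2, 93.5 and 67.6. Its groups were apart as well, with a log2 fold change of 0.54 ± 0.16 (edgeR, adjusted p = 0.0358). The Syne2 call was the least stable of the 6: it was lost on leaving out Glut1 transgenic Tnnt2low replicate 1, 2 or 3 or Tnnt2high replicate 1, 2 or 4, with log2 fold changes of 0.44 to 0.59 and adjusted p of 0.0506 to 0.121.

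Pcm1 (chr8:41239752-41332344) is the scaffold of centriolar satellites and, in cardiomyocytes, a marker of the nuclear envelope. It was at 262.9, 250.9, 223.5 and 236.4 CPM in Glut1 transgenic Tnnt2low and at 155.2, 167.8, 143.3 and 180.8 in Tnnt2high. The groups were well apart, with a log2 fold change of 0.59 ± 0.13 (edgeR, adjusted p = 0.00932). Pcnt (pericentrin, chr10:76351263-76442786), a coiled-coil scaffold of the pericentriolar matrix, was at 136.6, 142.0, 122.3 and 108.1 CPM against 71.8, 86.3, 82.1 and 85.2. Again the groups were apart, and the log2 fold change was 0.65 ± 0.15 (edgeR, adjusted p = 0.00861). Akap9 (chr5:3928054-4081310), which anchors protein kinase A and microtubule nucleation at the Golgi and the centrosome, was at 214.1, 217.2, 194.2 and 194.3 CPM against 148.9, 136.1, 134.4 and 130.0. These values did not overlap either, with a log2 fold change of 0.58 ± 0.14 (edgeR, adjusted p = 0.0133). For each of the 6 genes an exact two-sided permutation test gave p = 0.0286, the smallest that 4 against 4 unpaired libraries allow. It ignored the pairing of libraries by heart. A permutation within hearts, whose smallest p would be larger, was not run. Groups with every Tnnt2low library on top were found for 11.2% of all tested genes. Counted without strand, 3.12% of the Pcnt exons and 0.778% of the Akap9 exons overlap a gene on the other strand, 1700094J05Rik and Cyp51.

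Cdk5rap2 (chr4:70216856-70410443), which recruits the gamma-tubulin ring complex, was at 34.9, 45.9, 30.8 and 21.1 CPM in Glut1 transgenic Tnnt2low against 21.6, 17.8, 22.8 and 27.8 in Tnnt2high. Tnnt2low replicate 4 lay inside the Tnnt2high range, and the log2 fold change of 0.56 ± 0.22 did not pass the test (edgeR, adjusted p = 0.0959). Without that library, singled out here by its Cdk5rap2 value, it was 0.72 and passed (edgeR, adjusted p = 0.0261). With any other Glut1 transgenic library left out Cdk5rap2 was not called. Without Tnnt2low replicate 2, for example, the log2 fold change was 0.36 (edgeR, adjusted p = 0.303).

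The 3 centriole duplication factors were scarce, at 26 to 181 reads per library, and none was called. Plk4 (chr3:40800019-40816883), the kinase that starts the building of a new centriole, was at 16.4, 16.4, 15.4 and 17.7 CPM in Glut1 transgenic Tnnt2low against 7.5, 8.5, 19.1 and 9.7 in Tnnt2high. Only Tnnt2high replicate 3 reached the Tnnt2low values. The log2 fold change was 0.56 ± 0.28 (edgeR, adjusted p = 0.186). Without that library, singled out here by its Plk4 value, it was 0.94 and passed (edgeR, adjusted p = 0.0135). With any other Glut1 transgenic library left out Plk4 was not called. Without Tnnt2high replicate 1, for example, the log2 fold change was 0.40 (edgeR, adjusted p = 0.398). Cep135 (chr5:76588698-76646466), a part of the centriole's cartwheel region, was at 14.9, 18.9, 12.1 and 15.7 CPM against 9.3, 7.1, 24.1 and 8.5. Its highest value was in the same Tnnt2high library, replicate 3, and its log2 fold change was 0.33 ± 0.38 (edgeR, adjusted p = 0.601). Cenpj (chr14:56526761-56575425), which controls centriole length, was at 17.3, 17.7, 15.1 and 10.2 CPM against 10.9, 7.4, 14.9 and 13.1. These ranges overlapped, with a log2 fold change of 0.38 ± 0.28 (edgeR, adjusted p = 0.375).

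To see whether the populations differ in the same genes without the transgene, the WT libraries were compared in the same fit. No organizer was called: 0 of 10 at the adjusted threshold, where 0% of all tested genes were called, 0 at an unadjusted p under 0.05 (1.2% of all tested genes higher and 1.91% lower), and 0 in DESeq2. Akap6 was at 408.0 and 397.8 CPM in WT Tnnt2low and at 258.3 and 406.3 in WT Tnnt2high. Pcm1 was at 231.6 and 268.5 against 172.3 and 254.1, and Pcnt at 104.2 and 119.2 against 78.6 and 115.5 CPM. In each of these genes the first WT Tnnt2high library was lowest, and the other lay within the Tnnt2low range. Akap9 (177.9 and 242.9 against 143.6 and 215.3 CPM) and Syne2 (98.1 and 135.8 against 87.0 and 125.9) overlapped in the same manner, as did Syne1 (207.7 and 217.0 against 193.5 and 207.9).

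Among the scarcer genes in WT, Cdk5rap2 was at 31.1 and 29.0 CPM in Tnnt2low and at 33.6 and 32.9 in Tnnt2high, the reverse order of the Glut1 transgenic means. Plk4 was at 12.4 and 15.4 against 12.2 and 12.3 CPM, Cep135 at 10.7 and 11.1 against 7.9 and 21.3, and Cenpj at 14.7 and 9.7 against 9.8 and 12.9. These differences were small or went in both directions. The 10 log2 fold changes ran from -0.44 for Cep135 to 0.28 for Akap6, with a median of 0.16, and 8 were above 0 (edgeR, each adjusted p = 1). Single WT libraries moved these values: without Tnnt2high replicate 2 the median was 0.45 and 4 of 10 passed at an unadjusted p under 0.05 in edgeR, where 10.2% of all tested genes did, and without Tnnt2high replicate 1 it was -0.04 and 0 passed. Without Tnnt2low replicate 1 or 2 it was 0.28 or 0.03, also with 0. With 2 against 2 libraries an exact permutation test cannot go below p = 0.333.

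**Figure D2:**
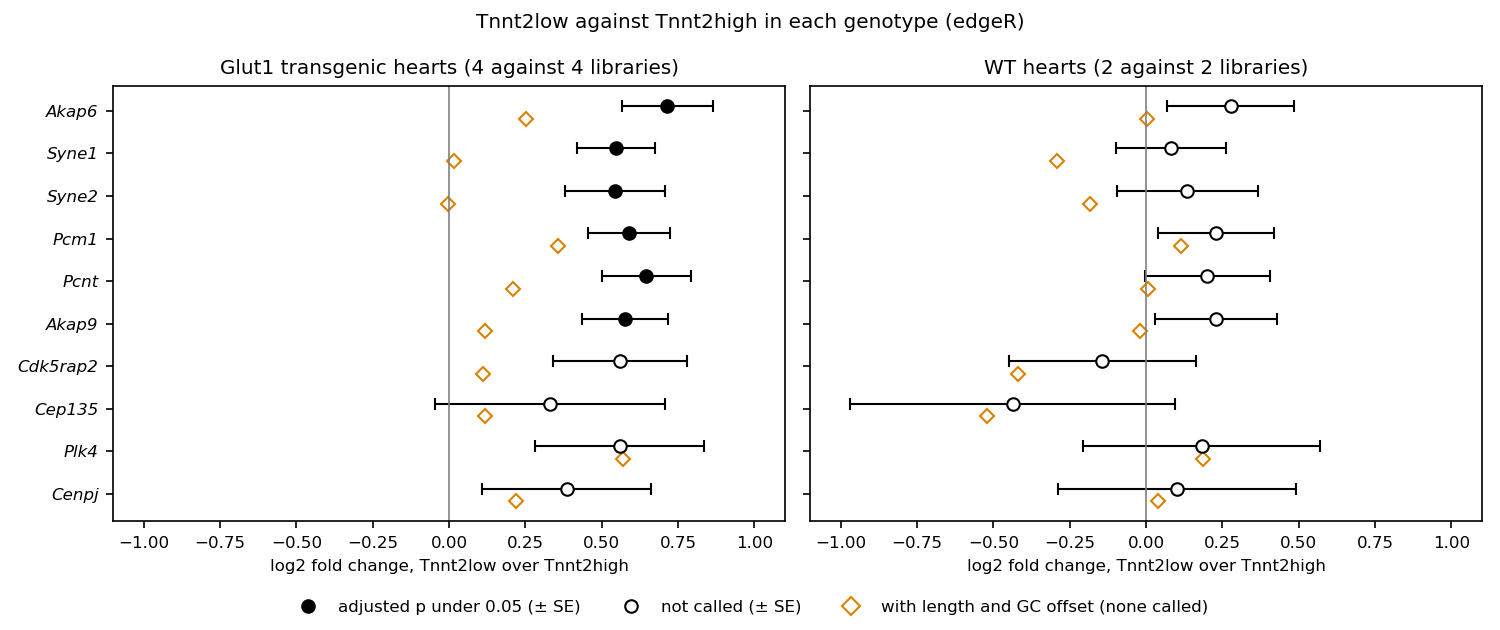
Log2 fold change of Tnnt2low over Tnnt2high (horizontal axes) of the 10 genes (rows) in Glut1 transgenic and WT hearts, from edgeR. Circles with SE bars are the fit without correction, filled where called (6 genes on the left, 0 on the right), and diamonds are the values with an offset for transcript length and GC content, none of which was called.

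The test of the difference itself, the interaction of population and genotype, called 0 of the 10 genes in edgeR (0% of all tested genes), 0 at an unadjusted p under 0.05 (2.32% of all tested genes higher and 2.2% lower) and 0 in DESeq2. All 10 interaction values were above 0, from 0.28 for Cenpj to 0.77 for Cep135, with a median of 0.42 against 0.01 over all tested genes. The smallest adjusted p was 0.961 in edgeR, so a difference between genotypes was not shown for any organizer. These values leaned on the WT Tnnt2high libraries. Without WT Tnnt2high replicate 2 the median interaction was 0.09, with values from -0.13 to 0.71. Without WT Tnnt2high replicate 1 it was 0.64, with values from 0.38 to 1.30.

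Paired by heart or number, the same contrast is seen library by library. The 10 organizers were all higher in Tnnt2low in Glut1 transgenic pairs 1 and 2, with median log2 ratios of 0.72 and 0.70. In pairs 3 and 4, 8 of 10 were higher, with medians of 0.48 and 0.48. The exceptions were Cep135 (-0.98) and Plk4 (-0.31) in pair 3, and Cdk5rap2 (-0.39) and Cenpj (-0.34) in pair 4. The 6 called genes were higher in Tnnt2low in all 4 pairs, as were 20.3% of all tested genes. In WT pair 1, 9 of 10 were higher with a median of 0.36, where 50.6% of all tested genes were higher, and in WT pair 2, 6 of 10 were higher with a median of 0.05, where 49.6% were.

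**Figure D3:**
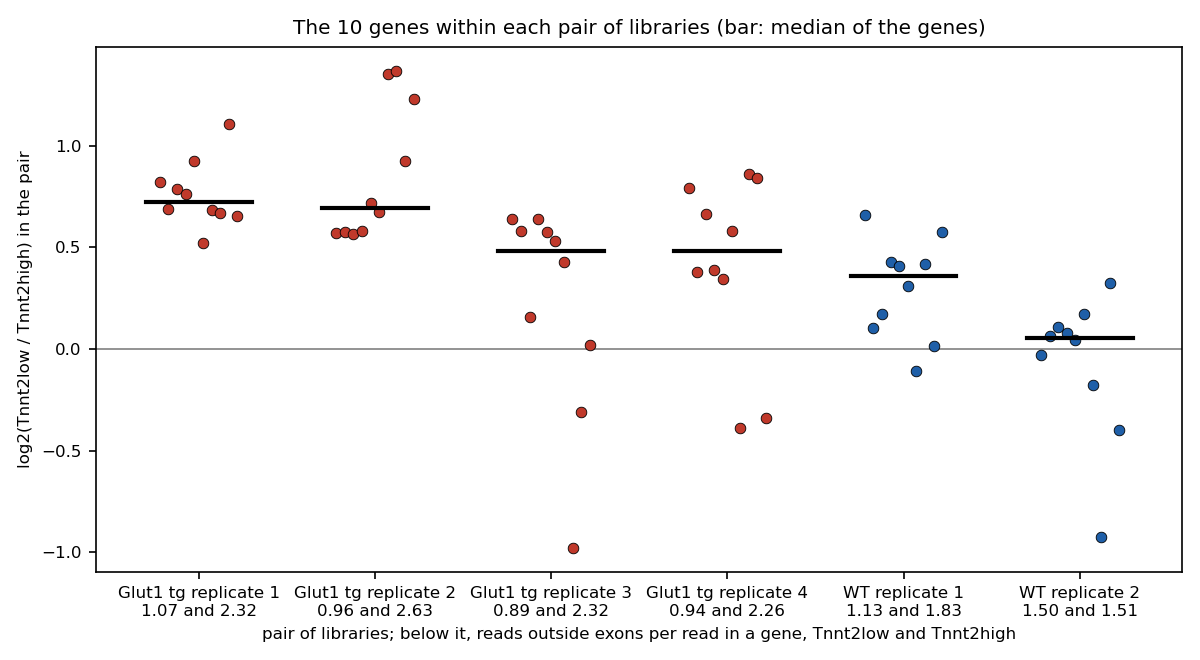
Log2 ratio of Tnnt2low over Tnnt2high CPM (vertical axis) of the 10 genes (points) within each of the 6 pairs of libraries, with the median of the genes as a bar. The medians were 0.72, 0.70, 0.48 and 0.48 in the Glut1 transgenic pairs and 0.36 and 0.05 in the WT pairs, and the numbers under each pair give its reads outside exons per read in a gene.

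The pair with the smallest ratios, WT pair 2, was also the pair whose libraries were closest in reads outside exons, at 1.495 and 1.51 per read in a gene. WT pair 1 was at 1.13 and 1.83, and the Glut1 transgenic pairs were at 0.886 to 1.07 against 2.26 to 2.63. The part of this quantity in the organizers' ratios was not tested.

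The genotypes were then compared within each population. All WT libraries read as female, with Ddx3y at 0 CPM and Xist at 199 to 504 CPM. Glut1 transgenic replicates 2 and 4 read as male, with Ddx3y at 56.4 to 65.2 CPM. Genotype is thus partly confounded with sex in these comparisons and in the interaction. In Tnnt2low cells no organizer was called between Glut1 transgenic and WT hearts by edgeR (0 of 10, where 0% of all tested genes were called higher and 0.00816% lower), 0 at an unadjusted p under 0.05 (0.93% of all tested genes higher and 1.16% lower) and 0 in DESeq2. Their log2 fold changes ran from -0.04 for Pcm1 to 0.50 for Cep135, with a median of 0.12. In Tnnt2high cells 0 of 10 were called by edgeR (0% of all tested genes) and 0 by DESeq2. At an unadjusted p under 0.05, 4 genes were lower in the Glut1 transgenic cells, Pcm1 (log2 fold change -0.40 ± 0.16), Akap9 (-0.39 ± 0.17), Syne1 (-0.36 ± 0.15) and Syne2 (-0.43 ± 0.20), where 3.13% of all tested genes were, and 0 were higher, where 2.17% were. None held after adjustment (edgeR, each adjusted p = 0.899). These values leaned on single WT libraries. Without WT Tnnt2high replicate 2 the median log2 fold change of the 10 genes went from -0.35 to -0.07, and without replicate 1 it was -0.59. For Cdk5rap2 every Glut1 transgenic Tnnt2high library (17.8 to 27.8 CPM) lay below both WT ones (32.9 and 33.6), with an exact permutation p of 0.0667, the smallest that 4 against 2 libraries allow. Syne1 was apart in the same direction (135.4 to 190.8 against 193.5 and 207.9 CPM), with an exact permutation p of 0.133, so 2 of the 10 were, where 6.12% of all tested genes were. The summed CPM of the 10 genes was 1321 to 1543 in Glut1 transgenic Tnnt2low, 1297 and 1446 in WT Tnnt2low, 997 and 1404 in WT Tnnt2high and 901 to 997 in Glut1 transgenic Tnnt2high. These comparisons share libraries with the ones above and are no separate evidence.

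The organizers share long transcripts, and in these libraries fold change followed transcript length across all genes. The longest transcripts of Syne1 (27.9 kb), Syne2 (21.7 kb), Akap6 (14.8 kb), Akap9 (13.1 kb), Cdk5rap2 (11.8 kb) and Pcnt (9.34 kb) are over 8 kb, and those of Pcm1 (6.62 kb), Cep135 (5.63 kb), Cenpj (4.76 kb) and Plk4 (3.48 kb) are shorter, against a median of 2.7 kb. In the Glut1 transgenic comparison the median log2 fold change of all tested genes was -0.78 below 1 kb, -0.44 from 1 to 2 kb, -0.07 from 2 to 4 kb, 0.27 from 4 to 8 kb and 0.51 from 8 kb up. Of the 757 tested genes of 8 kb or more, 39.5% were called higher, and 5 of the 6 organizers of that length were. From 4 to 8 kb 14.9% were called higher, among them Pcm1 of the 3 organizers of that length. Across 12187 genes the Spearman correlation of fold change with length was 0.51 in Glut1 transgenic hearts and 0.33 in WT, as a description over genes that share the same libraries.

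**Figure D4:**
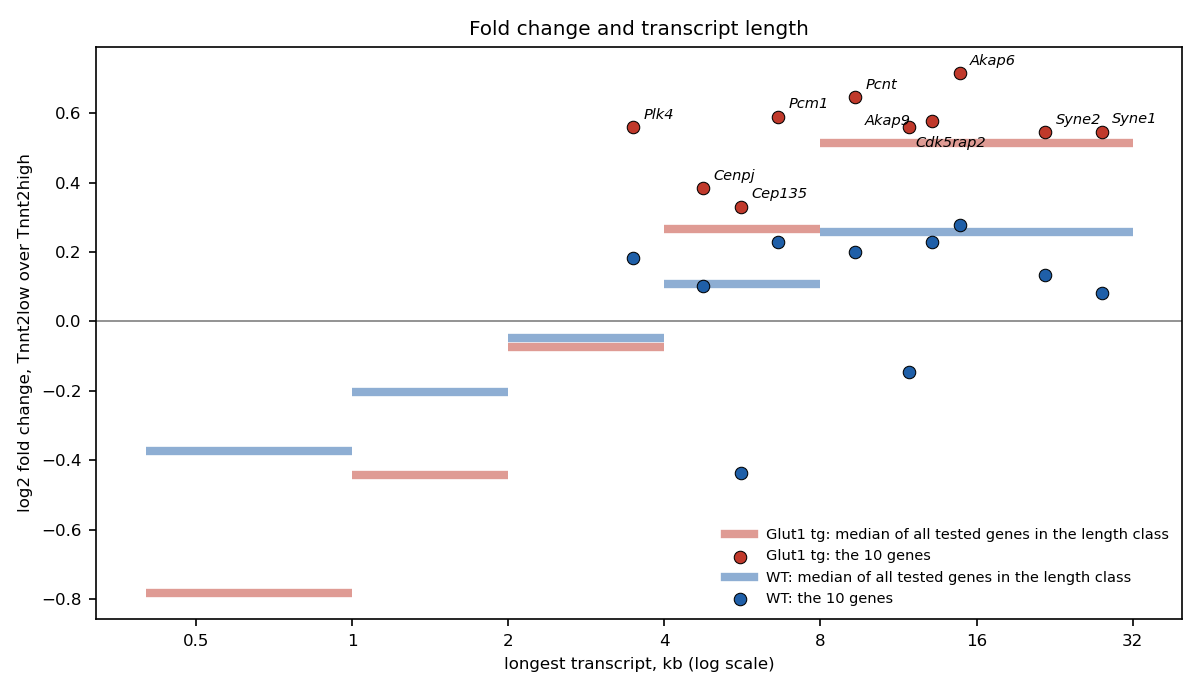
Log2 fold change of Tnnt2low over Tnnt2high (vertical axis) against the longest annotated transcript in kb (horizontal log scale) for the 10 genes (points, named for Glut1 transgenic hearts), with the median of all tested genes in each length class as a bar; the outer bars are drawn to the plot's limits. The medians of all genes climb from -0.78 below 1 kb to 0.51 at 8 kb or more in Glut1 transgenic hearts, and the long organizers lie close to the last of these.

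With an offset for transcript length and GC content in each library, all 6 calls were lost. The log2 fold changes became 0.36 for Pcm1, 0.25 for Akap6, 0.21 for Pcnt, 0.12 for Akap9, 0.01 for Syne1 and -0.0039 for Syne2, and the smallest adjusted p among the 10 genes was 0.125 in edgeR. Plk4, the shortest of the 10, kept its value, at 0.57 against 0.56 without the offset, and was not called in either fit. A shift common to long transcripts and a change of the organizers themselves cannot be told apart in these counts.

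The wider machinery around the organizers was followed through lists of related genes, also in Glut1 transgenic Tnnt2low against Tnnt2high. In this comparison 8.42% of all tested genes were called higher and 8.33% lower. Of 31 pericentriolar matrix and centriole genes, 9 were called higher and 1 lower (median log2 fold change 0.51). They included Pde4dip, a paralogue of Cdk5rap2 (0.63 ± 0.10), Cep68 (0.60 ± 0.14), the matrix assembly factor Cep192 (0.92 ± 0.23) and the mitotic kinase Plk1 (1.11 ± 0.30), while the centrin Cetn3 was lower (-0.62 ± 0.19). With the length and GC offset 2 of the 31 were called, Plk1 and Cep55 (edgeR, adjusted p = 0.0421 and 0.0422), where 2.38% of all tested genes were. Of 18 genes of the gamma-tubulin ring and augmin, which nucleate microtubules, 1 rose (Tubgcp6, 0.93 ± 0.23) and 1 fell (Mzt2, -1.13 ± 0.35), with a median of 0.01, where 8.42% of all tested genes rose and 8.33% fell. Of 14 other genes of centriolar satellites, the granules that Pcm1 scaffolds, 0 were called in edgeR, 3 passed at an unadjusted p under 0.05, where 31% of all tested genes did, and 1 was called in DESeq2, with a median of 0.22.

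Among partners at the nuclear envelope and on microtubules, every call in the first 3 lists was in the direction of the anchors. The 1 tubulin called went the other way. Of all tested genes 8.42% were called higher and 8.33% lower. Of those with transcripts from 4 to 8 kb 14.9% were called higher, and of those of 8 kb or more 39.5%. Of 22 tested genes of the LINC complex, which spans the envelope, and of its motors, 6 were higher and 0 lower (median 0.27), among them the dynein heavy chain Dync1h1 (0.62 ± 0.13), its adaptor Bicd2 (0.60 ± 0.13), the inner membrane protein Sun2 (0.57 ± 0.12) and Cenpf (1.72 ± 0.40), a mitotic protein that also binds the envelope. Of 19 genes of non-centrosomal anchoring and microtubule plus ends, 12 were higher and 0 lower (median 0.49), with Macf1 (0.74 ± 0.12), Dst (0.87 ± 0.15), Ckap5 (0.88 ± 0.15) and Tacc1 (0.64 ± 0.14) as examples. Of 16 signalling partners of A-kinase anchoring proteins, 6 were higher and 0 lower (median 0.47). They included the kinase subunit Prkar2a (0.70 ± 0.13), the calcium release channel Ryr2 (0.61 ± 0.11), Cdc42bpa (0.81 ± 0.17) and the phosphodiesterase Pde4d (0.86 ± 0.19). With the length and GC offset the calls in these 3 lists came down to 0 (5 at an unadjusted p under 0.05), 1 (Ckap5, adjusted p = 0.0403) and 1 (Prkar2a, adjusted p = 0.0454) in edgeR. With that offset 2.38% of all tested genes were called and 19.2% passed unadjusted. Of 12 tested tubulins 0 were higher and 1 was lower (Tuba4a, -0.57 ± 0.16), where 8.33% of all tested genes were lower. Their median was -0.39, or -0.12 with the offset, where none was called in edgeR and 3 passed unadjusted.

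Genes of the G2 and M phases, when centrosomes mature and separate, had a larger median change than the organizers. Of 16, 11 were higher and 0 lower (median log2 fold change 1.21), where 8.42% of all tested genes were called higher and 8.33% lower. Examples were Mki67 (1.94 ± 0.35), Aspm (1.61 ± 0.28), Cenpe (1.53 ± 0.27) and Bub1b (1.03 ± 0.23). These 4 and Ccnb2 were called with the length and GC offset, where 2.38% of all tested genes were called. With that offset the median of the 16 was 1.18. Their summed CPM was 1705, 2006, 982 and 707 in the Glut1 transgenic Tnnt2low libraries and 552, 461, 595 and 457 in the Tnnt2high ones. In WT it was 875 and 1296 against 619 and 1260. Of the 148 tested genes of these 8 lists, 0 were called by edgeR or DESeq2 in WT, between genotypes or in the interaction. At an unadjusted p under 0.05 in edgeR there were 3 in WT (3.11% of all tested genes), 2 between genotypes in Tnnt2low (2.09% of all), 20 in Tnnt2high (5.31% of all) and 15 in the interaction (4.52% of all).

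Over the 12 libraries the organizers followed each other to unequal degrees. Akap6, Pcm1, Pcnt and Akap9 were alike, with Pearson r of log CPM from 0.82 for Pcnt with Akap6 to 0.93 for Pcm1 with Akap9, while Cep135 with Cdk5rap2 and with Pcm1 had r of 0.31 and 0.31. Among the 7961 genes whose mean reached 10 CPM, the closest to Akap6 were Bbx (0.979) and Kdm3b (0.974), the closest to Pcm1 was Fat1 (0.976) and the closest to Pcnt was Kif13a (0.971). For Cdk5rap2 the nearest genes were Incenp (0.920), Taf15 (0.909) and Cdk1 (0.905). For Plk4 they were Cerk (0.934), Elk4 (0.933) and Cdca2 (0.930), and for Cenpj the first was Tbx5 (0.871). These are descriptions over libraries that share hearts, group differences and the length trend.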

How the data were processed

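Per the labels and the methods of the study, RNA of sorted cells was sequenced from an Illumina mRNA kit, reads were quality-checked with FastQC, aligned with HISAT2 to mm10 and counted per gene with HTSeq, and the authors tested with DESeq2. The strand setting was not given in the sources used here, nor were tool versions, and the labels describe dissected heart where the methods describe sorted cells. The deposited files hold raw counts per gene. Between 63.6% and 83.8% of records named no gene and were left out. Genes were tested with edgeR 4.0.16 (R 4.3.3): filterByExpr, TMM scaling, 1 quasi-likelihood fit of 12 libraries in 4 groups, Benjamini-Hochberg adjusted p under 0.05. Lengths came from GENCODE vM21 (98.5% of genes matched). The alternatives were DESeq2 1.42.0, RLE scaling, no filter, robust dispersion, only the groups compared, a replicate block, length and GC offsets (loess span 0.3), each library left out, and hearts read as female. Hearts pair the Glut1 transgenic libraries by label: deviations of same-heart libraries correlated at 0.226, 0.131, 0.118 and 0.107, and those of different hearts at -0.151 to 0.120. The test was run on simulated data first, with changes set between the Glut1 transgenic populations. There it recovered 0% of 67 genes changed 1.5-fold, 43.28% of 67 changed 2-fold and 84.85% of 66 changed 4-fold. It made 5 false calls among 11987 genes. Far fewer genes were changed there than the 2052 called in the real comparison, and with fewer changes the adjusted threshold is stricter. These shares therefore do not give the power of the real comparison. The comparisons that involve WT were not assessed in this way. All 10 genes are reported, and list genes were named as the up to 4 called genes with the smallest adjusted p in each direction. Those called with the length and GC offset were named as well. The genes and lists were chosen with earlier results of these data known. Permutation tests were two-sided and did not use the pairing.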

Additional observations from a re-analysis of the deposited data

Results flagged for a closer look

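In 20 sets of 4 Glut1 transgenic libraries (10 genes in 2 populations), a single library stood apart from the rest by Dixon's test 2 times, and chance gives about 1 in 20. Syne2 was at 138.5 CPM in Glut1 transgenic Tnnt2low replicate 1, with the next library at 110.1 and the lowest at 104.3. Without it the log2 fold change against Tnnt2high was 0.44 in place of 0.54, and the gene was not called (edgeR, adjusted p = 0.121). Cep135 was at 24.1 CPM in Glut1 transgenic Tnnt2high replicate 3, with the next library at 9.28 and the lowest at 7.12. Without it the log2 fold change was 0.88 in place of 0.33, and the gene was still not called (edgeR, adjusted p = 0.0770).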

How the results depend on the processing

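The 6 organizers called in Glut1 transgenic Tnnt2low against Tnnt2high were also called with DESeq2, RLE scaling, no low-count filter, robust dispersion, only the groups compared, the replicate block (6 of 10), and, chosen after seeing the data, a GC offset alone. The count fell to 0 with the length and GC offset (Syne2 at -0.0039, the reverse sign; 2 organizers at an unadjusted p under 0.05, where 19.2% of all genes passed), to 0 with the replicate block and both offsets (3 unadjusted, 21.4% of all genes), and to 0 with a length offset alone (1 unadjusted, 19.3% of all genes), which was added after seeing the data. It was also 0 among hearts read as female (Glut1 transgenic replicates 2 and 4, with Ddx3y at 56.4 to 65.2 CPM, left out), where 5 organizers passed unadjusted and 0 of 11982 genes were called in edgeR (2393 unadjusted), with 2 against 2 libraries. There the folds stayed in size, with a median log2 fold change of 0.55 against 0.56 and 0.48 to 0.75 for the 6 genes, though Cep135 was at -0.30. Leaving out 1 library at a time gave 5 to 7 organizers. Over all genes the calls were 2052, against 291 with the length and GC offset, 325 with length alone, 647 with the block and both offsets, and 1237 to 2127 leaving out 1 library. Those of 1237, 1267, 1249 and 1361 came without Glut1 transgenic replicates 1 and 2 of Tnnt2high and of Tnnt2low. The block changed no organizer's call in any comparison. In the 4 other comparisons 0 organizers were called under every alternative run, and the calls over all genes (0 or 1) ranged from 0 to 13. The loss under the offsets comes with a trend in transcript length whose cause was not tested. Cep135, Plk4 and Cenpj had 26 to 181 reads per library, and whether depth or spread limits their tests was not tested.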
